A study of Mus musculus with 11 samples.

Results

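The vesicle-associated membrane proteins (VAMPs) described here are Vamp2, Vamp3, Vamp4, Vamp7 and Vamp8, 5 of the 18194 genes measured here in whole mouse pancreas. They are read by 13 of the 34958 probe sets that carry a single gene symbol on the array (45101 probe sets in all). A probe set is a group of short array probes whose signals are combined into a single value for a transcript. Vamp3 has 5 probe sets, Vamp4 has 3, Vamp2 and Vamp7 have 2 each and Vamp8 has 1. All probe sets of these genes were taken, whatever their level. The genes were partly chosen by a measured value, the low level of Vamp3 in sham-injected offspring of low protein dams, and so that diet difference is given below as a description without a test.

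Pregnant Balb/C dams received a control diet with 20% protein or an isocaloric low protein diet with 8% protein during gestation, and all dams received the control diet from birth. Their female offspring were injected each day from day 1 to day 5 of life with streptozotocin (STZ, a toxin taken up by insulin-producing β-cells) at 35 mg/kg, or with vehicle (sham). Pancreas RNA was taken at 30 days of age. The 4 groups are control diet with sham injection (control sham, 3 arrays), control diet with STZ (control STZ, 2 arrays, replicates 1 and 3), low protein diet with sham injection (low protein sham, 3 arrays) and low protein diet with STZ (low protein STZ, 3 arrays). All groups share strain, sex, age and the control diet after birth. Replicates are labelled as biological, but the labels used here do not say which pups shared a dam, so that litter and maternal diet cannot be told apart.

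VAMPs are R-SNAREs, small tail-anchored proteins of the vesicle membrane. An R-SNARE pairs with a syntaxin and a SNAP-type partner on the target membrane, and the resulting helical bundle draws the membranes together. The NSF ATPase with its SNAP adaptors takes the bundle apart afterwards. In the pancreas this machinery releases zymogen granules from acinar cells, which make up most of the organ, and insulin granules from the β-cells of the islets. Vamp8 (endobrevin) serves zymogen granules, Vamp2 (synaptobrevin 2) serves insulin granules and also lies on zymogen granules, and Vamp3 (cellubrevin) works on recycling endosomes. Vamp4 carries traffic between endosomes and the trans-Golgi network, and Vamp7, which has an extended longin domain, acts at late endosomes and lysosomes.

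All values are deposited log2 signals, so that a difference of 1 is a 2-fold change in signal. Levels of different probe sets were not read as relative amounts of transcript, since probes bind with different strength. They served to group probe sets by signal and to pick 1 probe set per gene. The median of each array lay between 7.92 and 7.97, arrays of the same group correlated at r from 0.983 to 0.995, and arrays of different groups at r from 0.978 to 0.994. The first principal component held 35.0% of the variance and ran from control sham 1 at one end to low protein STZ 1 at the other. The tissue label was matched by the 12 measured acinar markers of 13 listed, whose mean lay at 14.52 to 14.63 in control sham, 14.45 to 14.47 in control STZ, 14.13 to 14.20 in low protein sham and 13.79 to 14.34 in low protein STZ. The 7 measured β-cell markers of 8 had means of 9.78 to 10.25 in control sham, and 8.87 to 8.90, 8.82 to 9.44 and 8.81 to 9.0 in control STZ, low protein sham and low protein STZ. In such bulk tissue, fewer cells of a type and less RNA per cell cannot be told apart. The spiked hybridisation controls, added in a fixed amount to each sample, read 11.03 to 11.62 in the arrays of the control diet and 10.63 to 11.24 in those of the low protein diet. Among the STZ arrays they read 11.31 and 11.53 in the control diet and 10.63, 10.83 and 11.13 in the low protein diet, without overlap. A fit with these controls as a covariate therefore cannot separate them from diet after STZ.

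Vamp8, the zymogen granule R-SNARE, was 1.41-fold lower in the low protein STZ arrays than in the control STZ arrays, but the difference did not pass adjustment over all probe sets. Its probe set 1420624_a_at read 11.95 and 11.98 in the control STZ arrays and 11.34, 11.55 and 11.52 in the low protein STZ arrays. The control sham arrays read 11.90, 11.63 and 12.09, and the low protein sham arrays 11.76, 11.93 and 11.68. Every low protein STZ array therefore lay below each of the other 8 arrays, and the control sham arrays overlapped both the control STZ and the low protein sham arrays. That ordering was noticed after the values were seen, and 1.24% of all probe sets had it. The difference between diets after STZ was -0.50 ± 0.13 (log2, SE, n = 3 against 2), with an unadjusted p of 0.00278 and an adjusted p of 0.483 in limma. The same adjusted p was the lowest of any probe set in that comparison.

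Within the low protein diet, Vamp8 was lower after STZ than after sham by 0.32 ± 0.11 (log2 difference -0.32, SE, n = 3 against 3; limma, unadjusted p 0.0183, adjusted p 1.00), without overlap. Within the control diet the difference was 0.10 ± 0.13 (limma, unadjusted p 0.471), and the groups overlapped. The test of the difference between these toxin effects gave -0.42 ± 0.17, with an unadjusted p of 0.0352 and an adjusted p of 1.00 in limma. These comparisons share arrays with one another and are not independent. Between the sham groups the low protein arrays differed by -0.08 ± 0.11, within the spread of the arrays. With cyclic loess, which rescales the arrays by signal level, the toxin difference in the low protein diet was -0.20 and its groups overlapped.

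**Figure D1:**
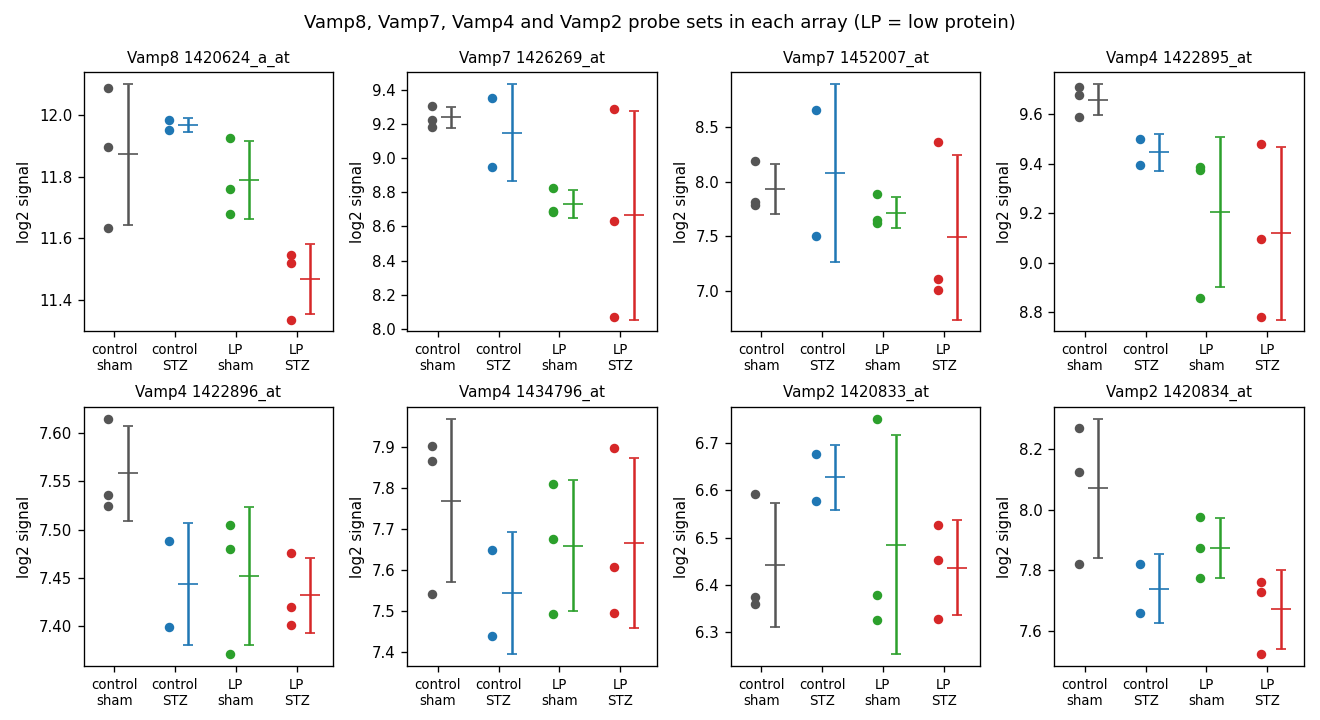
Log2 signal (vertical axis, a separate scale in each panel) of the 8 Vamp8, Vamp7, Vamp4 and Vamp2 probe sets in each array of the 4 groups, with group mean and SD beside the points (LP, low protein). Vamp8 reads 11.34 to 11.55 in the low protein STZ arrays, below every other array, while both Vamp7 probe sets spread widely among the STZ arrays.

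Bright probe sets as a whole read lower in the low protein arrays, and Vamp8 is among the bright ones. The 506 probe sets whose mean over the 11 arrays lay within 0.5 log2 units of Vamp8 had a median diet difference of -0.35 after STZ, against -0.50 for Vamp8 itself, and of -0.22 in the sham arrays, against -0.08. When the arrays were rescaled by cyclic loess, which removes differences that follow signal level, the Vamp8 difference after STZ was -0.17 ± 0.13 (limma, adjusted p 0.862). Its low protein STZ arrays then read 11.86, 11.64 and 11.51 and overlapped the control STZ arrays at 11.81 and 11.88. Under the same rescaling the Vamp8 difference between diets in the sham arrays turned to 0.15. Over the 11 arrays Vamp8 correlated with the mean of the acinar markers at r = 0.618, a description over arrays that share the same scaling. The part of the level-dependent shift or of the acinar markers in the Vamp8 values was not tested further.

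**Figure D2:**
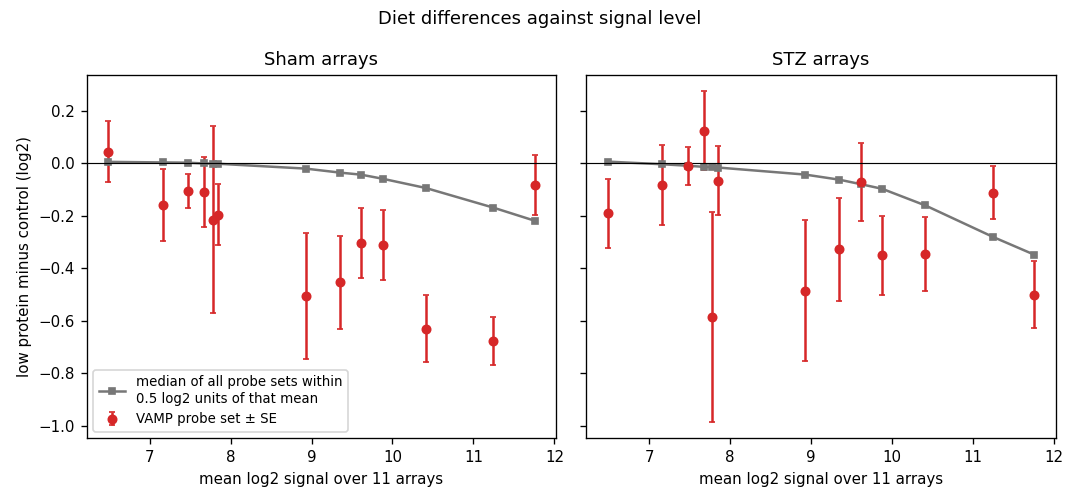
Diet difference (low protein minus control, log2, vertical axis) of each VAMP probe set with its SE against its mean log2 signal over the 11 arrays, in the sham arrays (left) and the STZ arrays (right), with the median of all probe sets of a similar level as squares. The median falls to -0.35 at the level of Vamp8 after STZ, where Vamp8 reads -0.50, and Vamp3 probe set 1456245_x_at lies at -0.68 in the sham arrays against a median of -0.17.

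Vamp3, the R-SNARE of recycling endosomes, was lower on the low protein diet by all 5 probe sets in both the sham and the STZ arrays, and its 5 probe sets differed widely in the size of that difference. The sham arrays are those that the choice of the gene used, and so their values are described only. Probe set 1456245_x_at read 11.61, 11.71 and 11.48 in control sham, 11.23 and 11.37 in control STZ, 10.80, 11.001 and 10.97 in low protein sham, and 11.08, 11.18 and 11.30 in low protein STZ. The control sham arrays were the highest of all 11 and the low protein sham arrays the lowest of all 11, with the STZ arrays of both diets between them and overlapping. An order with all low protein sham arrays lowest was found in 0.346% of all probe sets. Because the choice of Vamp3 used these arrays, that share does not measure how unusual the order is for this gene. The diet difference in the sham arrays was -0.68 ± 0.09, or 1.60-fold.

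The second Vamp3 probe set with separate sham groups, 1437708_x_at, read 10.73, 10.80 and 10.77 in control sham and 10.52 and 10.62 in control STZ. It read 10.14, 10.06 and 10.21 in low protein sham and 9.88, 10.33 and 10.47 in low protein STZ. All 5 control diet arrays lay above all 6 low protein arrays. The difference was -0.63 ± 0.13 (1.55-fold) in the sham arrays, described only.

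The means compared between diets after STZ use no sham array, and so that difference was tested. Its error was pooled over all 4 groups, so that the sham arrays do enter the SE and p: with only the STZ groups fitted, 2080 of all probe sets had an unadjusted p under 0.05, against 2705. The Vamp3 p-values here are therefore not independent of the choice of the gene. For 1437708_x_at the difference was -0.35 ± 0.14, with an unadjusted p of 0.0341 and an adjusted p of 0.599 in limma. Its SD was 0.04 in control sham and 0.07 in low protein sham, against 0.31 in low protein STZ. The pooled SE is thus narrowed by the sham arrays. Leaving out low protein STZ 1, the lowest of the 11 arrays for this probe set, brought the difference to -0.17, cyclic loess to -0.20 and the hybridisation control covariate to -0.08. Probe set 1433916_at, whose name lacks the suffix that marks possible cross-hybridisation, read 10.34 and 9.96 in control STZ and 9.68, 9.75 and 9.96 in low protein STZ. Its groups overlapped at their edges, and its difference was also -0.35 ± 0.15 (limma, unadjusted p 0.0392, adjusted p 0.616). It was -0.16 without control STZ 1 and -0.55 without control STZ 3.

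The probe set with the most separated sham arrays, 1456245_x_at, differed by only -0.11 ± 0.10 after STZ (limma, adjusted p 0.855), with overlap, and by -0.04 without control STZ 3. Probe sets of its level had a median of -0.28 after STZ, and with cyclic loess its difference turned to 0.15, while in the sham arrays it was -0.50 under that scaling. The other 2 probe sets, 1421102_a_at and 1433693_x_at, differed by -0.08 ± 0.15 and -0.07 ± 0.15 after STZ (limma, adjusted p 0.942 and 0.951). The STZ groups of 1433693_x_at were narrowly apart, with the highest low protein array at 9.61 and the lowest control array at 9.63. In the sham arrays 1433916_at differed by -0.31 ± 0.13, 1433693_x_at by -0.30 ± 0.13 and 1421102_a_at by -0.16 ± 0.14, each with overlapping groups. Without control sham 2 the value of 1433693_x_at was -0.16, and without control sham 1 that of 1421102_a_at was -0.05.

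The toxin difference of Vamp3 ran in opposite directions in the 2 diets for 1456245_x_at. It was -0.30 ± 0.10 in the control diet and 0.26 ± 0.09 in the low protein diet, and in each case no STZ array overlapped a sham array. The difference between the toxin effects was 0.56 ± 0.14, given without a test because it contains the sham arrays. Of the other 4 probe sets, 1437708_x_at differed by -0.19 ± 0.14 and 0.09 ± 0.13 in the same comparisons and 1433693_x_at by -0.10 ± 0.15 and 0.14 ± 0.13. Probe set 1433916_at read higher after STZ in both diets, by 0.16 ± 0.15 and 0.12 ± 0.13, but in the control diet the value was -0.03 without control STZ 1 and 0.36 without control STZ 3. Single arrays also turned 1433693_x_at in the control diet (0.05 without control sham 2) and 1437708_x_at in the low protein diet (-0.03 without low protein STZ 3). Only 1456245_x_at kept its direction in both diets whichever array was left out. The 3 probe sets named _x_at contain probes that may bind other transcripts as well, and which transcripts those are was not examined here.

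**Figure D3:**
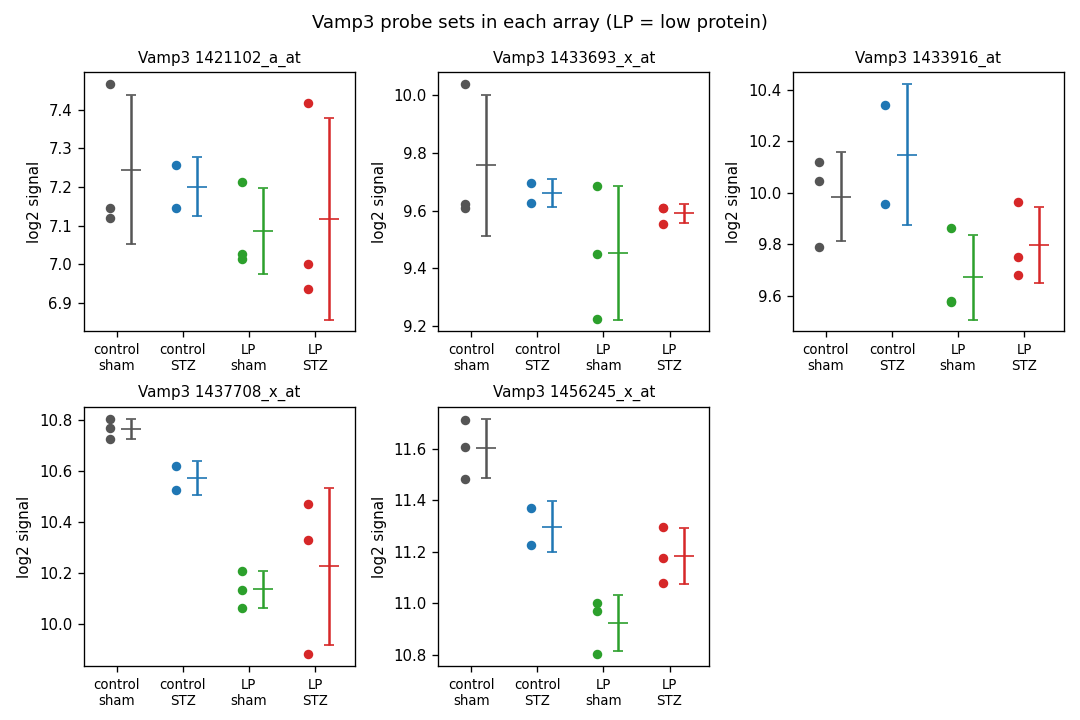
Log2 signal (vertical axis, a separate scale in each panel) of the 5 Vamp3 probe sets in each array of the 4 groups, with group mean and SD beside the points (LP, low protein). In 1437708_x_at the control diet arrays lie at 10.52 to 10.80 and the low protein arrays at 9.88 to 10.47, and in 1456245_x_at the low protein sham arrays are the lowest at 10.80 to 11.001.

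Probe sets of the same gene followed one another only in part. Over the 11 arrays 1437708_x_at and 1456245_x_at correlated at r = 0.877, and 1421102_a_at with 1433693_x_at at r = 0.14. Probe set 1437708_x_at correlated with the mean of the acinar markers at r = 0.960 and 1456245_x_at at r = 0.780. These values describe arrays that share group differences and scaling, and the part of the acinar markers in the Vamp3 values was not tested. Of 15896 genes, those whose probe set followed 1456245_x_at most closely were Myadm (r = 0.958), Ninj1 (r = 0.937), Pex5l (r = 0.934), Nsd2 (r = 0.924) and Fank1 (r = 0.919). For Vamp8 they were Nsa2 (r = 0.948), Pfdn1 (r = 0.940), Smim4 (r = 0.932), Naxe (r = 0.922) and Acot13 (r = 0.920).

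Vamp7, the longin R-SNARE of late endosomes, had the widest spread among the STZ arrays of all the genes here. Probe set 1426269_at read 9.19, 9.22 and 9.31 in control sham and 8.69, 8.68 and 8.83 in low protein sham, without overlap. It read 9.35 and 8.95 in control STZ and 8.07, 8.63 and 9.29 in low protein STZ. Low protein STZ 1 was the lowest array of all, and low protein STZ 3 lay among the control sham arrays. The diet difference was -0.51 ± 0.24 in the sham arrays, described only (-0.23 with the hybridisation control covariate), and -0.49 ± 0.27 after STZ (limma, adjusted p 0.722). The latter was -0.19 without low protein STZ 1, -0.80 without low protein STZ 3, and -0.03 once the hybridisation controls entered the fit. Probe set 1452007_at read 8.65 and 7.51 in control STZ and 7.11, 7.01 and 8.36 in low protein STZ, a difference of -0.59 ± 0.40 (limma, adjusted p 0.791). The low protein STZ array at 8.36 made the groups overlap, since the other 2 lay below both control STZ arrays. The difference was -0.01 without control STZ 1 and -1.16 without control STZ 3. The RNA integrity measure, the signal difference between the ends of control transcripts, was 1.08 in control STZ 1 and 1.93 in control STZ 3. These were the lowest and highest values of the 11 arrays. Probe set 1452007_at correlated with that measure at r = -0.656 over the 11 arrays, and the part of RNA integrity in its values was not tested. In the sham arrays the diet difference of 1452007_at was -0.22 ± 0.36, described only, and its groups overlapped. It was -0.57 with RNA integrity as a covariate and 0.005 with a covariate for lymphocyte markers. Both probe sets of the gene correlated over the 11 arrays (r = 0.798).

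Vamp4, the R-SNARE between endosomes and trans-Golgi, read lower in the low protein arrays by 1 of its 3 probe sets more than by the others. Probe set 1422895_at read 9.59, 9.71 and 9.68 in control sham, 9.50 and 9.39 in control STZ, 8.86, 9.38 and 9.37 in low protein sham, and 8.78, 9.09 and 9.48 in low protein STZ. The control sham arrays were the highest 3 of 11. All low protein sham arrays and the low protein STZ arrays at 8.78 and 9.09 lay below all control diet arrays. Low protein STZ 3, at 9.48, lay between the control STZ arrays. The diet difference was -0.45 ± 0.18 in the sham arrays, described only, where it was -0.28 without low protein sham 1 and -0.24 with the hybridisation control covariate. It was -0.33 ± 0.20 after STZ (limma, adjusted p 0.755), where it was -0.16 without low protein STZ 1 and -0.51 without low protein STZ 3. Once the hybridisation controls entered the fit, the difference after STZ turned to 0.02. It followed Vamp7 1426269_at over the arrays (r = 0.873), and both followed the acinar markers, at r = 0.860 and r = 0.905. The part of those markers in either gene was not tested.

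The other 2 Vamp4 probe sets had narrower ranges. Probe set 1422896_at had group means of 7.56 ± 0.05 (SD, n = 3), 7.44 ± 0.06 (SD, n = 2), 7.45 ± 0.07 (SD, n = 3) and 7.43 ± 0.04 (SD, n = 3) in control sham, control STZ, low protein sham and low protein STZ. Probe set 1434796_at was the only member with a higher mean on the low protein diet after STZ, by 0.12 ± 0.15 (limma, adjusted p 0.906), and by 0.0073 without low protein STZ 3. Its 4 groups overlapped at each step of their order. Control sham lay above all other arrays for 4 of the 13 VAMP probe sets (1437708_x_at and 1456245_x_at of Vamp3, 1422895_at and 1422896_at of Vamp4). That order was present in 2.13% of all probe sets and noticed after the values were seen. The choice of Vamp3 used the control sham arrays, so that the order of its probe sets was partly fixed by the choice and is a description.

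Vamp2, the R-SNARE of insulin granules, was lower after STZ in the control diet by 1 of its 2 probe sets before adjustment. Probe set 1420834_at read 7.82, 8.27 and 8.12 in control sham, 7.66 and 7.82 in control STZ, 7.97, 7.78 and 7.87 in low protein sham, and 7.73, 7.76 and 7.52 in low protein STZ. The higher control STZ array equalled the lowest control sham array at 7.82, and the low protein STZ arrays lay below the low protein sham arrays. The toxin difference was -0.33 ± 0.13 in the control diet (limma, unadjusted p 0.0295, adjusted p 1.00) and -0.20 ± 0.12 in the low protein diet (limma, unadjusted p 0.113, adjusted p 1.00), where it was -0.13 without low protein STZ 3. The other probe set, 1420833_at, lay in the opposite direction in the control diet, at 0.19 ± 0.13 (limma, unadjusted p 0.183, adjusted p 1.00), and at -0.05 ± 0.12 in the low protein diet. Over the same groups Ins2, an insulin gene, had mean log2 signals of 14.97, 13.25, 13.88 and 13.13 in control sham, control STZ, low protein sham and low protein STZ. The part of β-cell content in the Vamp2 values was not tested. Probe set 1420833_at was the only VAMP probe set whose mean lay below 6.87, the 0.25 quantile of all probe set means, and its diet difference after STZ was -0.19 ± 0.13 (limma, adjusted p 0.791).

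Seen as a family, 12 of the 13 VAMP probe sets had a lower mean on the low protein diet after STZ, where 58.7% of all probe sets were lower. For 4 of the 13 the groups did not overlap, against 13.7% of all probe sets, and 3 of the 13 had an unadjusted p under 0.05 in limma, against 5.92%. None of the 13 passed at an adjusted p of 0.05, and neither did any other probe set (0.00%), with 2705 probe sets under 0.05 unadjusted. The median difference was -0.19 over the members and -0.03 over all probe sets. Members of the same gene share a transcript, so that these counts do not stand for 13 genes. With cyclic loess 11 of the 13 were lower (53.4% of all probe sets under that scaling) and 2 were lower without overlap (11.4%). Once the hybridisation controls entered the fit 9 of the 13 were lower (51.4%) with a median of -0.03. Those controls did not overlap between the diets in the STZ arrays, so that the latter fit cannot separate them from diet. In the sham arrays, which the choice of members used, 12 of the 13 were lower (54.9% of all probe sets), 5 of them without overlap (8.76%), and the median was -0.22 against -0.01.

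**Figure D4:**
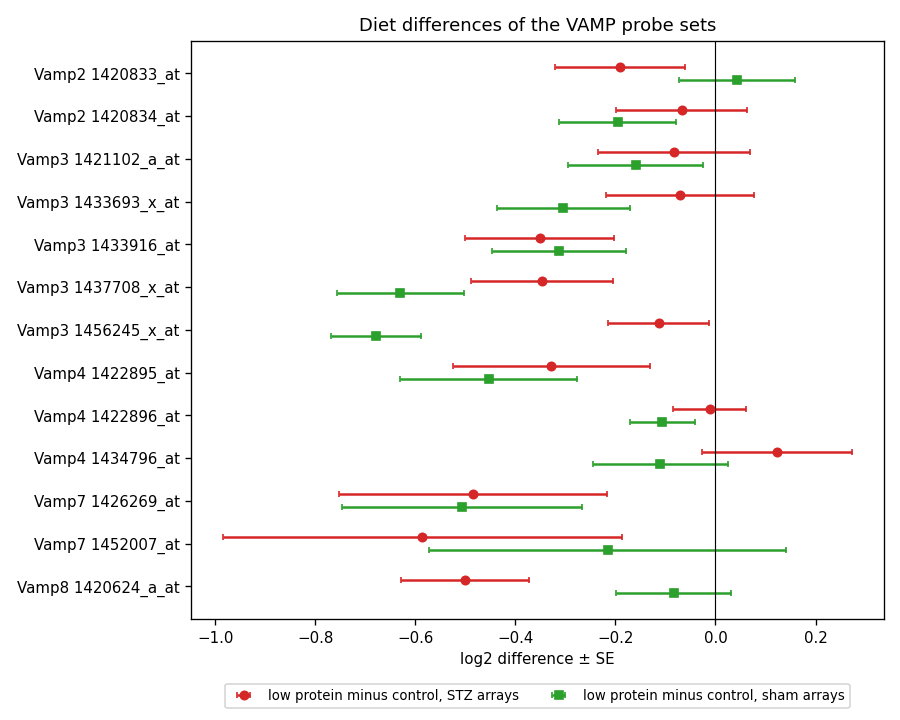
Difference between diets (low protein minus control, log2, horizontal axis) with its SE for each VAMP probe set, in the STZ arrays (circles) and the sham arrays (squares). All circles but Vamp4 1434796_at at 0.12 lie below 0, with Vamp7 at -0.49 and -0.59 and Vamp8 at -0.50, and the largest sham difference is -0.68 for Vamp3 1456245_x_at.

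In each diet the toxin differences of the 13 probe sets ran in both directions, and in the control diet most were lower. With 1 probe set per gene, 4 of the 5 genes were lower after STZ in the control diet (48.9% of all genes, median of the 5 -0.21). In the low protein diet 4 of the 5 genes were lower (56.0% of all genes, median of the 5 -0.09). The higher gene was Vamp8 in the control diet and Vamp3 in the low protein diet. In the control diet 9 of the 13 probe sets were lower after STZ (48.9% of all probe sets), 4 without overlap (7.98%), with a median of -0.10 against 0.00. Those 4 were Vamp3 1437708_x_at and 1456245_x_at and Vamp4 1422895_at and 1422896_at. The choice of Vamp3 used the sham arrays of both diets, so that counts here that include its probe sets are descriptions only. Only the 8 members other than Vamp3 were tested in the control diet. Of these, 1 had a lower value with an unadjusted p under 0.05 in limma (2.41%), Vamp2 1420834_at, and none passed adjustment. In the low protein diet 7 of the 13 probe sets were lower (55.4%), 2 without overlap (4.45%), with a median of -0.02 against -0.01. In that diet 1 probe set, Vamp3 1456245_x_at, was higher without overlap (2.83%). There 1 of the 8 tested members, Vamp8, had an unadjusted p under 0.05 (1.62%), and none passed adjustment. In the test of the difference between toxin effects Vamp8 was again the 1 of 8 with a lower value at that level (2.15%), and none passed adjustment.

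**Figure D5:**
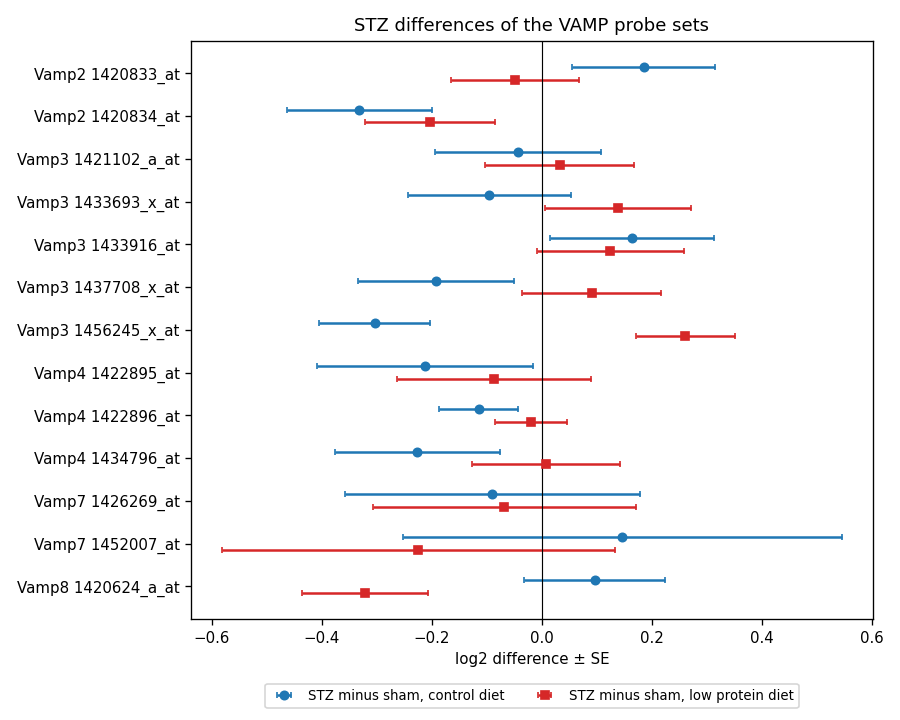
Difference between injections (STZ minus sham, log2, horizontal axis) with its SE for each VAMP probe set, in the control diet (circles) and the low protein diet (squares). Vamp3 1456245_x_at lies at -0.30 in the control diet and 0.26 in the low protein diet, and Vamp8 at 0.10 and -0.32.

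The other genes of SNARE-mediated fusion were counted from a list of 58, of which 56 had a probe set, taking for each gene the probe set with the highest mean. After STZ 41 of the 56 were lower on the low protein diet and 15 higher, against 59.8% of all genes lower. In that comparison 3 had an unadjusted p under 0.05 in limma, all lower (7.02% of all genes), none passed adjustment, 10 were lower without overlap (15.5%) and 2 higher without overlap (8.13%). The list had a median of -0.09.

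By role, all 4 other R-SNAREs were lower, as were 8 of 11 syntaxins, 13 of 14 SNAP-type and other partner SNAREs, all 7 measured Sec1/Munc18 proteins, which clasp the SNARE bundle, 2 of 4 disassembly factors and 7 of 16 regulators. Vamp5, an R-SNARE of muscle and endothelium, read 8.80 and 8.72 in control STZ and 8.41, 8.53 and 8.34 in low protein STZ. These arrays were apart, with a difference of -0.34 ± 0.09 (limma, unadjusted p 0.00354, adjusted p 0.483). The low protein STZ arrays of Vamp5 overlapped the sham arrays of both diets. Its toxin difference in the control diet, given below, uses the same control STZ arrays and is not a separate result. Among the Sec1/Munc18 proteins, Stxbp2 (Munc18-2), a form that serves epithelial secretion, differed by -0.21 ± 0.09 (limma, unadjusted p 0.0304, adjusted p 0.589) and Vps33b, a subunit of endosomal tethering complexes, by -0.20 ± 0.08 (-0.13 without control STZ 1). With cyclic loess the Stxbp2 value was -0.13. The control STZ arrays read 9.84 and 9.80 for Stxbp2, above the low protein STZ arrays at 9.52, 9.59 and 9.71.

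The values of the next genes of each role moved by over 1.5 times with a single array left out or another setting. Ykt6, an R-SNARE held by a lipid anchor, differed by -0.26 ± 0.12, by -0.09 with cyclic loess and by -0.13 without low protein STZ 1. Bet1, a SNARE between endoplasmic reticulum and Golgi, differed by -0.52 ± 0.26, and by -0.25 without control STZ 1. Use1, a SNARE of retrograde traffic to the endoplasmic reticulum, differed by -0.33 ± 0.16, and by -0.20 with array weights. Of the syntaxins, Stx12 differed by -0.24 ± 0.15 (-0.13 without control STZ 1) and Stx5a by -0.22 ± 0.13 (-0.03 under cyclic loess, -0.11 without low protein STZ 1). Rab27b, a GTPase of secretory granules, differed by -0.46 ± 0.25 (-0.29 without control STZ 1) and Syt7, a calcium sensor of exocytosis, by 0.18 ± 0.11 (0.11 with array weights). Napa (α-SNAP), the adaptor of NSF, differed by -0.23 ± 0.13, by less than 0.01 under cyclic loess and by -0.09 without low protein STZ 1. None of these had an unadjusted p under 0.05 in limma.

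In the control diet 34 of the 56 were lower after STZ (48.9% of all genes). An unadjusted p under 0.05 in limma was reached by 3 of the 56 (4.16% of all genes), 2 lower and 1 higher, and none passed adjustment. The lower ones were Stx7, a syntaxin of late endosomes, at -0.28 ± 0.10 (limma, unadjusted p 0.0186), and Snap47 at -0.22 ± 0.10, which was -0.09 without control STZ 1 and -0.36 without control STZ 3, and the higher one was Vamp5 at 0.22 ± 0.09 (limma, unadjusted p 0.0346). In the low protein diet 39 of the 56 were lower (56.0% of all genes) and none reached an unadjusted p under 0.05. There the smallest p was that of Stx5a, at -0.24 ± 0.12, and -0.13 without low protein STZ 1. In the sham arrays 41 of the 56 were lower on the low protein diet (55.9% of all genes), a description.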

How the data were processed

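Biotin-labelled cRNA from 11 pancreas RNA samples was hybridised to Affymetrix arrays, per the labels' protocols. The deposited series matrix holds the authors' log2 signals, and the submitters' processing notes name RMA and Partek 6.5, without saying which step each did. The annotation build is not given in the sources used here. Detection calls, scan dates and replicate 2 of the control STZ group were not used here.

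Groups came from the sample labels. All 34958 probe sets with a single symbol in the platform annotation (932 had several, 9211 none) were fitted in limma 3.58.1 under R 4.3.3, with 1 mean per group, no filter, two-sided moderated tests and Benjamini-Hochberg adjustment over all probe sets at 0.05. The fit was tested on simulated data. Members of the VAMP family and the pathway and marker lists were chosen with earlier results of these data known. Contrasts with the sham diet arrays that the choice used carry no p for Vamp3, and the sham diet contrast carries none for any member.

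Every VAMP probe set is named. Of each pathway list, fewer than 3 genes per contrast were picked, those with the smallest p and below a limit on p. Not all of the picked genes are described. The 5 genes most correlated with Vamp3 and with Vamp8 over the 11 arrays were also named. Replicate numbers were not treated as pairs in the main fit. Of 15 same-numbered pairs of arrays, 5 had r over 0.1 between deviations from group means, with a range of -0.32 to 0.30. Of 30 pairs with different numbers, 9 did, with a range of -0.46 to 0.38. The deviations of the control STZ arrays mirror one another, so that pairs with them add little. This check cannot exclude pairing. Array number limits the precision. Each p-value sets a difference against the pooled spread of these arrays. As the dams are not labelled, that spread may not cover differences between litters. The alternatives were a replicate block, a fit of only the groups compared, trend and robust moderation, array weights, cyclic loess, a filter on dim probe sets, 1 probe set per gene, covariates for RNA integrity and lymphocyte markers, and each array left out; a covariate for the hybridisation controls and leaving out both ends of the first principal component were added after seeing the data.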

Additional observations from a re-analysis of the deposited data

Results flagged for a closer look

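Vamp3 probe set 1456245_x_at stood out because every STZ array lay below every sham array in the control diet, a difference of -0.30, and every STZ array lay above every sham array in the low protein diet, a difference of 0.26. The difference between these effects was not tested, because the sham arrays took part in choosing the gene. The same opposite arrangement was found in 264 of all probe sets (0.755%). For the same reason that share does not measure how unusual the arrangement is for this gene.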

How the results depend on the processing

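No VAMP probe set passed at an adjusted p of 0.05 in limma under any of the alternatives in the contrasts tested. Of 782 alternative values for 37 tested results, 740 kept their sign and side of the threshold and 42 turned in sign. Of 590 values for 28 described results, 16 moved by more than the replicate spread. The number of probe sets passing in the sham diet contrast was 0 and ranged from 0 to 164 with an array left out (1 without control sham 3 and 164 without low protein STZ 1), and was 21 without both ends of the first principal component. The replicate block changed no call: Vamp8 between diets after STZ was -0.50 with an adjusted p of 0.704, and 2267 probe sets in place of 2705 were under 0.05 unadjusted. With array weights that number was 4296, and for STZ in the low protein diet it was 3300 in place of 859. For Vamp8 between diets after STZ the values ran from -0.54 to -0.44 with an array left out, and the adjusted p over all alternatives from 0.245 to 0.989.

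Between diets after STZ, the hybridisation control covariate turned Vamp2 1420834_at to 0.0343, Vamp3 1433693_x_at to 0.0121 and Vamp4 1422895_at to 0.0218. Vamp3 1421102_a_at turned to 0.00688 with the lymphocyte covariate and to 0.00773 without both ends of the first component, and cyclic loess turned Vamp3 1456245_x_at to 0.151 and Napa to 0.000955. With an array left out, Vamp2 1420834_at ran from -0.148 to 0.0129, Vamp3 1421102_a_at from -0.233 to 0.00773 and Vamp4 1422896_at from -0.0562 to 0.0331. For STZ in the control diet, Vamp7 1426269_at was 0.0353 with the lymphocyte covariate and -0.290 to 0.111 with an array left out, Vamp7 1452007_at was -0.130 with the RNA integrity covariate and -0.427 to 0.720, and Vamp8 was -0.0232 to 0.204. For STZ in the low protein diet, leaving out both ends of the component gave 0.00485 for Vamp2 1420833_at, 0.0815 for Vamp4 1422895_at and 0.229 for Vamp7 1426269_at. The hybridisation covariate gave 0.0190 and 0.0701 for the last 2, the lymphocyte covariate 0.0439 for Vamp7 1426269_at, and array weights -0.123 for Vamp4 1434796_at. With an array left out, Vamp2 1420833_at ran from -0.129 to 0.0843, Vamp4 1422895_at from -0.267 to 0.0815, Vamp4 1422896_at from -0.0604 to 0.00655, Vamp4 1434796_at from -0.109 to 0.0926, Vamp7 1426269_at from -0.381 to 0.229 and Vamp7 1452007_at from -0.658 to 0.0178. For the difference between toxin effects, array weights gave -0.0420 for Vamp7 1426269_at and the RNA integrity covariate 0.120 for Vamp7 1452007_at. With an array left out, Vamp4 1422895_at ran from -0.0543 to 0.294, Vamp7 1426269_at from -0.291 to 0.319 and Vamp7 1452007_at from -0.944 to 0.203. The cause of these turns was not tested.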
